A study of Mus musculus with 2 samples.

Results

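Solute carriers are the membrane proteins of the Slc gene families, and 48 of them were measurable above a set level in sorted taste cells that carry α-gustducin (gene Gnat3), the α subunit of a G protein used in taste. The members were the genes whose symbols start with Slc and a digit, other than Slc2a1 and Slc27a4, that had at least 50 CPM in either of 2 libraries. CPM is the count of a gene scaled to one total for all genes (1000000), here taken from the summed counts of all kept cells of a library. These were 48 of 281 such genes and of 21888 genes listed in all. The members were thus chosen by their pooled CPM in these libraries, so their pooled levels and the ratios drawn from them are descriptions without a test.

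The cells came from adult α-gustducin-GFP mice on a C57BL/6J background, in which gustducin cells fluoresce green, and were sorted by that fluorescence after the epithelium around the papillae had been digested. One group came from fungiform papillae (FP), scattered over the front tongue, and the other from the single circumvallate papilla (CV), far back on the tongue. Each group is 1 library, the labels name no treatment, and no source used here gives the number of animals behind a library. Cells with more than 500 genes and Gnat3 above 0.9 on the ln(1 + counts per 10000) scale were kept, 21 of 29 FP and 32 of 61 CV barcodes, and no barcode number was shared between the libraries. The kept FP cells summed to 22646953 counts and the kept CV cells to 29535917. The median cell had 1141640 counts in FP and 543963 in CV. With 1 library per group there was no replicate check, and cells of 1 library are not replicates of a papilla. All intervals are 95% intervals that cover counting error only.

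Solute carriers move ions, metals, amino acids, sugars, lipids, vitamins and nucleotides across the plasma membrane and across the membranes of organelles. Many are driven by the sodium or proton gradients that ATP-driven pumps maintain, and the Slc25 family carries metabolites through the inner mitochondrial membrane. Taste cells of type II, the class that holds gustducin, detect sweet, umami and bitter compounds and signal to nerves by releasing ATP.

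As pools, the kept cells carried the markers of their label. Apart from Gnat3, which chose the cells, the 6 type II markers examined (Trpm5, Plcb2, Itpr3, Gng13, Gnb3 and Pou2f3) were above 50 CPM in both libraries. Their summed level per cell was 4065 to 22555 CPM in FP cells and 56.2 to 27043 CPM in CV cells, so at least 1 kept CV cell had little of them. Slc1a3, the glutamate carrier that marks type I taste cells, had 0 counts in FP and was not listed for CV. The 4 type I markers summed to 8.88 CPM in FP cells and 30.2 CPM in CV cells, and the 4 type III markers that were listed, of 7, to 2.16 and 43.9 CPM. The endothelial marker Pecam1 was at 0 in FP and at 36.3 CPM in CV cells, on in 2 cells, and the cycling marker Top2a was at 37.9 CPM in FP cells, on in 2 cells, and at 0.677 CPM in CV cells. The 10 lingual keratinocyte markers summed to 136 CPM in FP cells, with 87.2 to 527 CPM in single cells, against 2.47 CPM in CV cells, where Krt76, Krt16, Krt6b and Krtdap were at 0. In the 8 FP barcodes left out by the Gnat3 limit the same list reached 72174 CPM. In those 8 barcodes 35 of the 48 members were lower than in the kept FP cells, among them the 10 that were at least 2-fold higher in FP, which had been chosen for a high level in kept FP cells. In the 24 left-out CV barcodes 36 of 48 members were lower than in kept CV cells, among them 13 of the 14 that were at least 2-fold higher in CV. All 48 members had been chosen by their level in kept cells, a choice that favours lower values in left-out barcodes. The same shares over all genes were not computed, and the left-out CV barcodes had 47.7% mitochondrial counts. Kept cells varied in this too. Mitochondrial counts made up 8.17% to 68.0% in kept FP cells (median 11.1%) and 1.63% to 88.6% in kept CV cells (median 12.5%). Ribosomal RNA reached 79.0% in 1 kept CV cell. The part of keratinocyte or other RNA in the results was not tested.

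Most Slc genes lay below the limit, as did most genes of the series, of which 5028 of 21888 reached it. Of the 233 others, 102 had 10 to under 50 CPM and 131 had less than 10 CPM, of which 17 had no count in either pool. The members just inside the limit were Slc9a9 (50.2 CPM in CV), Slc1a5 (52.1 CPM in FP) and Slc35b1 (52.9 CPM in CV). Those just outside were Slc44a3 (49.5 CPM in FP), Slc44a5 (49.3 CPM in FP) and Slc30a9 (48.99 CPM in CV). No vesicular carrier (8 genes), nucleoside carrier (5) or peptide carrier (5) was a member, and none of the 18 sugar carriers other than Slc2a1. Slc17a9, the vesicular nucleotide carrier, was not listed for FP and had 0.474 CPM in CV cells. The intestinal glucose carrier Slc5a1 had 0.0883 CPM in FP cells and 0 counts in CV, and the insulin-regulated glucose carrier Slc2a4 had 0.0442 and 0.0339 CPM. These last 3 genes were chosen after their values were seen.

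Between the papillae, carriers differed in both directions around a common level. The 48 members summed to 4277 CPM in FP cells and 4356 CPM in CV cells. On the log2(CPM + 10) scale, which understates differences of low genes, FP exceeded CV by 2-fold or more for 10 members (20.8%), CV exceeded FP by as much for 14 (29.2%) and 24 lay within 2-fold. Over the 5028 genes that met the same 50 CPM minimum the shares were 17% for FP and 17.1% for CV. The 50 CPM minimum itself sets many directions: 19 members reached it in both libraries, 11 in FP only and 18 in CV only, and of the 24 members that were at least 2-fold apart, 21 reached it in 1 library only. The other 3 were Slc22a17, Slc6a6 and Slc38a2. Counts and medians by role below are therefore descriptions of the members and not evidence that a role differs. The members had a median log2 ratio (FP/CV) of 0.08, and the 5028 genes had one of 0.07. A stricter description asked in addition that the gene, in the library where it was higher, be on, meaning at least 50 CPM in a cell, in 25% or more of that library's cells, and that the ratio stay 2-fold without the highest cell of each library. It left 6 members in FP (12.5%, against 9.07% of the 5028 genes) and 4 in CV (8.33%, against 8.27%). The 6 were Slc20a2, Slc25a17, Slc22a17, Slc6a6, Slc39a11 and Slc25a29, and the 4 were Slc27a2, Slc16a3, Slc33a1 and Slc38a2. The CV share lay at that of all genes, and the FP share differed from it by a few members.

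**Figure D1:**
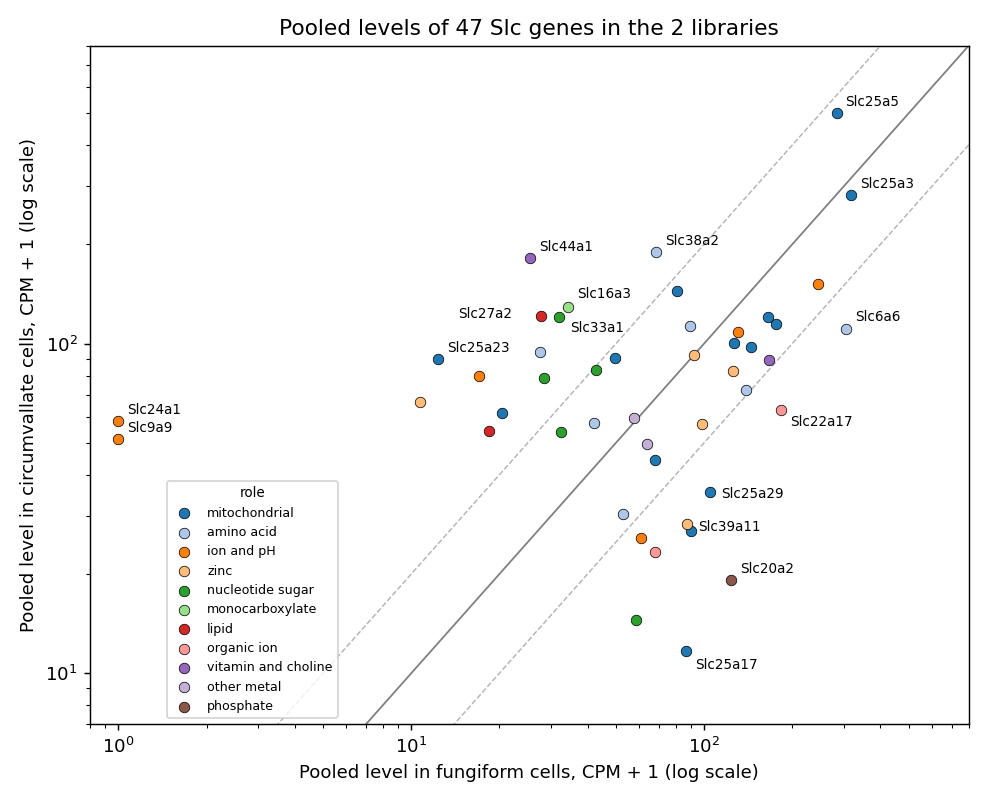
Pooled level of 47 of the 48 Slc genes in the kept FP cells (x axis) and the kept CV cells (y axis), as CPM + 1 on log axes, with points coloured by role. The solid line marks equal levels and the dashed lines a 2-fold difference in CPM + 1; Slc24a1 and Slc9a9 lie at 0 CPM in FP cells, and Slc20a2 and Slc25a17 lie farthest to the FP side.

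Promoter sequences are shown for 6 members whose ratio stayed at least 2-fold in the same direction under each of 14 other ways of processing, so that the upstream DNA of FP-higher and CV-higher carriers can be read side by side. Slc25a17 and Slc22a17 were higher in FP, and Slc38a2, Slc33a1, Slc9a9 and Slc24a1 were higher in CV. Each runs 5′ to 3′ on the gene's strand up to the annotated start, from RefSeq on GRCm38.p6, the assembly of mm10, without the bases that lie inside the gene in GENCODE M21. Capitals mark the GC box GGGCGG, the CCAAT box CCAAT, the octamer ATGCAAAT bound by POU factors, the E box CACGTG and the amino acid response element TGATGNAA, searched on both strands; none of these motifs contains another.
Slc25a17 (chr15:81360813-81361015, minus strand): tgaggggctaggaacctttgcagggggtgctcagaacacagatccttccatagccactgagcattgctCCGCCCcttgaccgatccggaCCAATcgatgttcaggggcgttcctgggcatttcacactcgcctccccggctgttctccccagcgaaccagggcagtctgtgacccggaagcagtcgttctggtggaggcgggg
Slc22a17 (chr14:54913133-54913382, minus strand): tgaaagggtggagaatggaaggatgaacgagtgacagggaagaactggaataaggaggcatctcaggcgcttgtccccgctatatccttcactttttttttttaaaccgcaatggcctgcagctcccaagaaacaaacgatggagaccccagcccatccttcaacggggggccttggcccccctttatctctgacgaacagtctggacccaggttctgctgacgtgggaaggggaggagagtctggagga
Slc38a2 (chr15:96699731-96699978, minus strand): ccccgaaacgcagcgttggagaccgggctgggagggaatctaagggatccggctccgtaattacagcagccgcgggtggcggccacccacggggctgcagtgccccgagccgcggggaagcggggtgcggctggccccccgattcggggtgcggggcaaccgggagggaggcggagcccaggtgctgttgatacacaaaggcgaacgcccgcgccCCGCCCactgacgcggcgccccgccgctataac
Slc33a1 (chr3:63964769-63964983, minus strand): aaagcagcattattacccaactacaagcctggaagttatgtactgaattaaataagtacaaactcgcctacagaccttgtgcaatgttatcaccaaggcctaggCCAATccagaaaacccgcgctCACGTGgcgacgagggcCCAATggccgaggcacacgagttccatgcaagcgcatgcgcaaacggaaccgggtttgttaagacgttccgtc
Slc9a9 (chr9:94669642-94669891, plus strand): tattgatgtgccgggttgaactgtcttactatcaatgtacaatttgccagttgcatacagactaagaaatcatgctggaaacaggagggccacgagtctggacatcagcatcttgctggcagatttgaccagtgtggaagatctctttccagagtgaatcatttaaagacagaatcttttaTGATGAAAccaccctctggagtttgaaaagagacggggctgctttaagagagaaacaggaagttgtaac
Slc24a1 (chr9:64951621-64951870, minus strand): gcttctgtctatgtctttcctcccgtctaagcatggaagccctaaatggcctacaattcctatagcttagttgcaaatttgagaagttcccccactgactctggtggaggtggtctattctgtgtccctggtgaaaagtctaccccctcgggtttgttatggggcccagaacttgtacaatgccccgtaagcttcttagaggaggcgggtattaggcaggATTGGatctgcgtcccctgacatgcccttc

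Of the 48 members, 38 had a RefSeq promoter. In up to 250 bases before the start, the GC box was found in 25 of these 38. It was found in 4 of 7 FP-higher members and in 7 of 12 CV-higher members, against 32.9% of all 27025 promoters. The CCAAT box was found in 16 of 38, in 4 of 7 and in 5 of 12, against 34.5%. The octamer was found in 0 of 38, against 1.61% of all promoters, and the E box in 2 of 38, against 6.05%. The amino acid response element was found in 2 of 38, both higher in CV, against 3.53%. The 27025 promoters were not limited to genes with at least 50 CPM, as the members were, so the shares do not compare like genes. Shares over the promoters of such genes were not computed. These matches describe letters in a window and show no bound site.

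Mitochondrial and related carriers of the Slc25 family were the largest group, with 14 members. Their summed level was 1712 CPM in FP cells and 1707 CPM in CV cells, and 9 of 14 lay within 2-fold, with 3 higher in FP and 2 in CV (median log2 ratio 0.37). Slc25a5, an ADP/ATP exchanger of the inner membrane, had 282 CPM (275 to 289) in FP cells, with 0 to 1729 CPM in single cells and a median of 205. The CV level was 499 CPM (491 to 507), with 0 to 1919 CPM in single cells and a median of 85.2. It was on in 14 of the 21 FP cells and 18 of the 32 in CV, and its cell values overlapped over nearly their whole range. The phosphate carrier Slc25a3, which supplies phosphate for ATP synthesis, had 317 and 281 CPM, with 12 FP and 15 CV cells on. The second ADP/ATP exchanger, Slc25a4, had 126 and 99.4 CPM, with 8 FP and 7 CV cells on. Slc25a5, Slc25a3 and Slc25a4 thus lay within 2-fold between the libraries, as did 5 listed mitochondrial carriers or carrier-like proteins without an Slc symbol, among them Ucp2 (371 and 251 CPM) and the pyruvate carrier subunits Mpc1 (324 and 301 CPM) and Mpc2 (111 and 96.9 CPM). Per kilobase of the longest GENCODE transcript, Slc25a5 led the members with 228 CPM in FP cells and 402 CPM in CV cells, followed by Slc25a39 (97.2 and 71.0) and Slc25a11 (83.98 and 56.5). No source used here says where along a transcript the reads lay, so this order between genes is uncertain.

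Within the Slc25 family the ratios farthest from 1 were those of Slc25a17 in FP and Slc25a23 in CV. Slc25a17, which serves peroxisomes and carries coenzyme A and related cofactors, lies on chromosome 15 from 81318911 to 81360812 (mm10, as are all positions here). It had 85.9 CPM (82.2 to 89.8) in FP cells, with 0 to 431 CPM in single cells, and 10.7 CPM (9.52 to 11.9) in CV cells, with 0 to 209. Its median cell was at 0 in both libraries, it was on in 7 FP cells and 1 CV cell, and the pooled ratio was 8.06 (7.15 to 9.10). In CV 89.5% of its counts came from 1 cell. Slc25a29, a mitochondrial carrier of basic amino acids, had 104 CPM (99.9 to 108) in FP cells and 34.4 CPM (32.3 to 36.6) in CV cells, with a median cell at 0.681 and 0 CPM. It was on in 8 and 5 cells, and its highest cell was in CV at 589 CPM. Slc25a28, the mitochondrial iron importer mitoferrin 2, had 88.9 CPM in FP cells and 25.9 CPM in CV cells and was on in only 4 and 3 cells.

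Of the calcium-dependent ATP-Mg/phosphate carriers, Slc25a23 was at least 2-fold higher in CV and Slc25a25 lay within 2-fold. Slc25a23 reached 50 CPM in CV only, so the minimum set its direction. Slc25a23 had 11.3 CPM in FP cells, on in 2 cells, and 88.8 CPM in CV cells, on in 7 cells, a ratio of CV over FP of 7.83 (6.88 to 8.93). Slc25a25, of the same function, went the other way with 175 and 114 CPM, on in 13 and 8 cells. With cells thinned to equal totals the log2 ratio of Slc25a23 moved from -2.21 to -0.63, and its highest FP cell (534 CPM) was the kept FP cell with the fewest genes. Slc25a51, the mitochondrial carrier of NAD+, was the other CV-higher member with 19.3 CPM in FP cells and 60.7 CPM in CV cells. The members of the malate-aspartate shuttle were within 2-fold: Slc25a13, the aspartate/glutamate carrier, had 79.9 and 143 CPM, and Slc25a11, the oxoglutarate/malate carrier, had 144 and 96.7 CPM. Both were on together in 4 FP and 3 CV cells. The mitochondrial glutathione carrier Slc25a39 (164 and 120 CPM), the branched-chain amino acid carrier Slc25a44 (48.7 and 89.6 CPM) and Slc25a16 (66.8 and 43.4 CPM) completed the group.

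Amino acid carriers of the cell surface were led by different genes in each papilla. Of 7 members, Slc6a6 was at least 2-fold higher in FP, Slc38a2 and Slc7a7 in CV, and 4 lay within 2-fold (median log2 ratio -0.31). Slc6a6, the sodium-dependent taurine carrier at chromosome 6, positions 91684053 to 91759066, had 305 CPM (298 to 312) in FP cells, with 0 to 1452 CPM and a median of 124 in single cells. Its CV level was 110 CPM (106 to 114), with 0 to 1782 CPM and a median of 1.68. It was on in 13 of the 21 FP cells and 9 of the 32 in CV, the pooled ratio was 2.77 (2.66 to 2.89), and the cell values of the libraries overlapped. Slc38a2, a sodium-coupled carrier of small neutral amino acids at chromosome 15, positions 96687392 to 96699730, had 67.5 CPM (64.2 to 71.0) in FP cells, with 0 to 314 CPM and a median of 0.940 in single cells. In CV it had 188 CPM (183 to 193), with 0 to 2174 CPM and a median of 21.5. It was on in 7 FP and 13 CV cells, a ratio of CV over FP of 2.78 (2.63 to 2.95).

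Slc7a7, a light chain that exchanges cationic for neutral amino acids, had 26.6 CPM in FP cells and 93.0 CPM in CV cells. It rested on few cells, since 99.8% of its FP counts and 50.8% of its CV counts came from 1 cell each. Its heavy chain Slc3a2 had 40.98 and 56.2 CPM. Both chains were on together in 1 FP cell and 0 CV cells, where 8 CV cells had Slc3a2 on and 4 had Slc7a7 on. At any level, 21 CV cells had a count of Slc3a2 and 14 had one of Slc7a7. With so few cells on, the absence of shared CV cells is a description, and it was not tested. The cationic amino acid carrier Slc7a1 had 138 and 71.4 CPM, and the neutral amino acid exchanger Slc1a5 had 52.1 and 29.4 CPM. Slc38a10 had 88.7 and 112 CPM, with 5 FP and 10 CV cells on. In FP 55.9% of its counts came from 1 cell, and without the highest cells its log2 ratio moved from -0.31 to -1.04.

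The ion carriers held the only members without a count in FP. Slc24a1, a sodium/calcium-potassium exchanger known from rod photoreceptors, lies on chromosome 9 from 64922861 to 64951607. It was not listed for FP and taken as 0 there, and in CV it had 57.2 CPM (54.5 to 59.9), with 0 to 387 CPM in single cells. By a floor of 3 pooled counts that is at least 431-fold higher in CV, yet it was on in only 4 of 32 cells and 56.4% of its counts came from 1 cell. Slc9a9, an endosomal sodium/proton exchanger on chromosome 9 from 94669909 to 95230445, was listed for FP with 0 counts. It had 50.2 CPM (47.7 to 52.8) in CV cells, at least 379-fold higher by the same floor, with 0 to 434 CPM in single cells. It was on in 5 CV cells and had a count in 17. With 0 of 21 FP cells on for either gene, a floor of 3 cells puts the limit of that share at 14.3%. The exact 95% upper limit is 16.1%, above the CV shares of 12.5% for Slc24a1 and 15.6% for Slc9a9. Both folds hold for the pooled counts only and set no lower bound on a difference between the papillae.

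The cation-chloride cotransporters set the chloride content of a cell. Among them the importer was at least 2-fold higher in CV and the exporter lay within 2-fold. The importer reached 50 CPM in CV only, so the minimum set its direction. Slc12a2, the sodium-potassium-chloride importer NKCC1, had 16.1 CPM in FP cells and 78.9 CPM in CV cells, on in 2 and 6 cells, a ratio of CV over FP of 4.91 (4.39 to 5.50). Slc12a7, the potassium-chloride exporter KCC4, had 243 CPM (237 to 250) in FP cells and 151 CPM (147 to 156) in CV cells. Its median cell was at 156 CPM in FP cells and 2.28 CPM in CV cells, and it was on in 14 of 21 and 9 of 32 cells. The log2 ratio of Slc12a2 moved from -1.77 to -0.59 once the deepest 10% of cells were left out. With no Gnat3 limit the log2 ratio of Slc12a7 turned from 0.65 to -0.24. Slc9a4, a basolateral sodium/proton exchanger, had 60.1 CPM in FP cells, on in 4 cells, and 24.7 CPM in CV cells, where 99.7% of its counts came from 1 cell. Slc9a3r1 (130 and 107 CPM) met the rule by its symbol but encodes NHERF1, a scaffold that binds transporters.

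Zinc carriers of the Slc39 family, which move zinc into the cytosol, gave 5 members, and no Slc30 exporter reached the limit. Slc39a11 was at least 2-fold higher in FP, Slc39a1 in CV, and 3 lay within 2-fold (median log2 ratio 0.55). Slc39a11, at chromosome 11, positions 113244853 to 113650079, had 86.5 CPM (82.7 to 90.4) in FP cells, with 0 to 644 CPM and a median of 1.78 in single cells. The CV level was 27.4 CPM (25.6 to 29.4), with 0 to 197 CPM and a median of 0, and it was on in 6 and 4 cells. Slc39a1, a carrier of the cell surface, had 9.71 CPM (8.47 to 11.1) in FP cells and 65.4 CPM (62.5 to 68.4) in CV cells. It had a count in 17 of 21 FP cells but was on in 1 of them, at 70.1 CPM, against 7 of 32 CV cells. Slc39a6 was at 91.3 and 91.5 CPM, with a ratio of 0.997 (0.941 to 1.06). Slc39a7, which releases zinc from the endoplasmic reticulum, had 124 and 81.8 CPM, and Slc39a9 had 97.6 and 56.1 CPM. Of 4 genes of zinc handling, only the metallothionein gene Mt1 reached 50 CPM, with 156 CPM in FP cells and 60.7 CPM in CV cells. In CV 81.7% of the Mt1 counts came from 1 cell. A second metallothionein gene, Mt2, lay below the minimum and went the other way, with 5.03 and 15.2 CPM.

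The 5 members of the Slc33 and Slc35 families, grouped by family number and not by a known location of each, reached 50 CPM in 1 library only. These were Slc35f6 in FP and the other 4 in CV, which fixed the direction of each. Of the 4, Slc33a1 and Slc35g2 were at least 2-fold higher in CV. Slc33a1, which brings acetyl-CoA into the endoplasmic reticulum, lies on chromosome 3 from 63933507 to 63964768. It had 31.04 CPM (28.8 to 33.4) in FP cells, with 0 to 222 CPM and a median of 1.73 in single cells. Its CV level was 119 CPM (115 to 123), with 0 to 4124 CPM and a median of 0.260, and it was on in 3 and 9 cells. The highest CV value came from 1 cell, the next CV cell had 676 CPM, and most CV cells lay below 50 CPM. Slc35d1, a carrier of UDP-sugars, was widely detected, with a count in 20 of the 21 FP cells and 24 of the 32 in CV. Its levels were 41.9 and 82.1 CPM, with medians of 30.2 and 37.95 CPM in single cells, and it was on in 7 and 14 cells. Slc35g2 had 27.3 and 77.9 CPM, and Slc35b1, which exchanges ATP for ADP at the endoplasmic reticulum, had 31.4 and 52.9 CPM. Slc35f6 had 57.7 CPM in FP cells, of which 48.5% came from 1 cell, and 13.5 CPM in CV cells.

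The fatty acid and lactate carriers Slc27a2, Slc27a1 and Slc16a3 reached 50 CPM in CV only, so the minimum set their direction. Slc27a2, a fatty acid carrier and acyl-CoA synthetase at chromosome 2, positions 126552407 to 126588243, had 26.8 CPM (24.7 to 28.98) in FP cells, of which 97.4% came from 1 cell at 405 CPM. In CV it had 120 CPM (116 to 124), with 0 to 1369 CPM in single cells, and was on in 10 of 32 cells against 1 of 21. The ratio of CV over FP was 4.496 (4.12 to 4.91). Its relative Slc27a1 had 17.5 and 53.4 CPM, and both genes were on together in 2 CV cells and in no FP cell. Slc16a3, the proton-coupled lactate exporter MCT4 at chromosome 11, positions 120948480 to 120960868, had 33.2 CPM (30.9 to 35.7) in FP cells, with 0 to 296 CPM in single cells. The CV level was 128 CPM (124 to 132), with 0 to 2838 CPM, where the second highest cell had 429 CPM. Slc16a3 was on in 3 of the 21 FP cells and 9 of the 32 in CV. Basigin, the glycoprotein that brings MCT4 to the cell surface (gene Bsg), had 571 and 290.5 CPM, and was thus lower in CV, unlike Slc16a3. Of the 9 CV cells with Slc16a3 on, 6 had Bsg on.

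Among the carriers of choline, phosphate and the remaining cargo, Slc44a1 had the highest level in CV. In FP the highest was Slc22a17, followed by Slc44a2. The choline carrier Slc44a1 had 24.5 CPM (22.5 to 26.6) in FP cells and 181 CPM (176 to 186) in CV cells, a ratio of CV over FP of 7.40 (6.78 to 8.10), but it was on in 2 and 7 cells and 48.7% of its CV counts came from 1 cell. Once the deepest 10% of cells were left out, its log2 ratio moved from -2.47 to -0.67. Its relative Slc44a2 had 166 and 88.2 CPM, with 10 FP and 12 CV cells on. The 2 genes were on together in no FP cell and in 2 CV cells.

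Slc20a2, the sodium-coupled phosphate carrier PiT2 at chromosome 8, positions 22476788 to 22569612, had 123 CPM (118 to 127) in FP cells, with 0 to 840 CPM in single cells. Its CV level was 18.1 CPM (16.6 to 19.8), with 0 to 178 CPM, and it was on in 7 of the 21 FP cells and 2 of the 32 in CV. The pooled ratio was 6.77 (6.17 to 7.44). Slc22a17, a receptor for the siderophore-binding protein lipocalin 2, lies on chromosome 14 from 54906304 to 54913132. It had 182 CPM (176 to 187) in FP cells, with 0 to 866 CPM and a median of 20.6 in single cells, and 62.03 CPM (59.2 to 64.9) in CV cells, with 0 to 289 CPM and a median of 0. It was on in 10 of 21 and in 5 of 32 cells, and 54.4% of its CV counts came from 1 cell. Slc22a18 had 66.9 CPM in FP cells, on in 4 cells, and 22.3 CPM in CV cells, where 87.1% came from 1 cell. The magnesium carrier Slc41a1 (56.5 and 58.4 CPM) and the heme carrier Slc48a1 (62.97 and 48.5 CPM) were within 2-fold.

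In single cells the carriers were patchy at the 50 CPM level. A member was on in a median of 5 of 21 FP cells, with a range of 0 to 14, and in a median of 7 of 32 CV cells, with a range of 1 to 18. Members had at least 1 count in more cells, a median of 11 of 21 FP cells and 14.5 of 32 CV cells. Only 13 of 48 members (27.1%) were on in at least 25% of the cells of both libraries, against 37% of the 5028 genes. The broadest were Slc25a5, Slc25a3, Slc44a2, Slc35d1, Slc38a2 and Slc9a3r1. The cell with the most counts gave 15.8% to 56.4% of a member's pooled counts in its higher library, with a median of 30.4%. Of the 510 pairs of a member and an FP cell with a count, 46.5% were under 50 CPM, and of the 683 such pairs in CV, 51.98%. Those low pairs had a median of 4 and 2 counts, while pairs that were on had a median of 211 and 184 CPM.

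**Figure D2:**
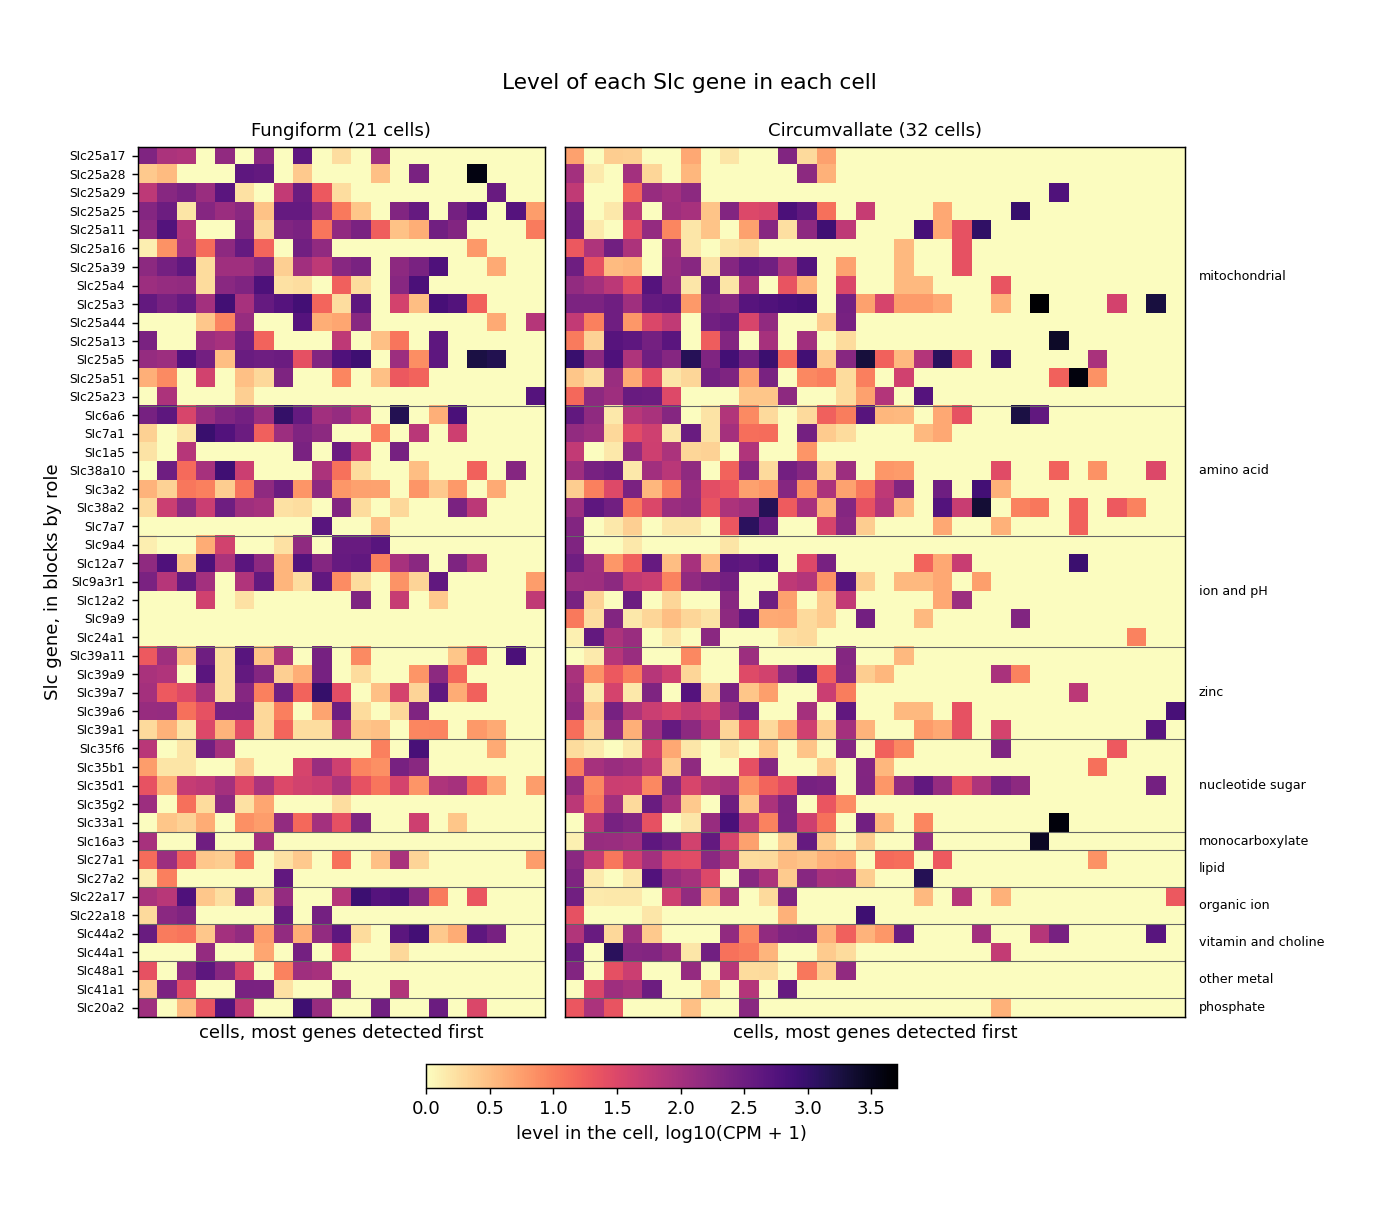
Level of 47 of the 48 Slc genes (rows, in blocks by role) in each of the 21 FP cells and 32 CV cells (columns, ordered by genes detected), as log10(CPM + 1). Filled squares thin out to the right, in cells with fewer genes detected, and only Slc35d1 has a count in as many as 20 FP cells.

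**Figure D3:**
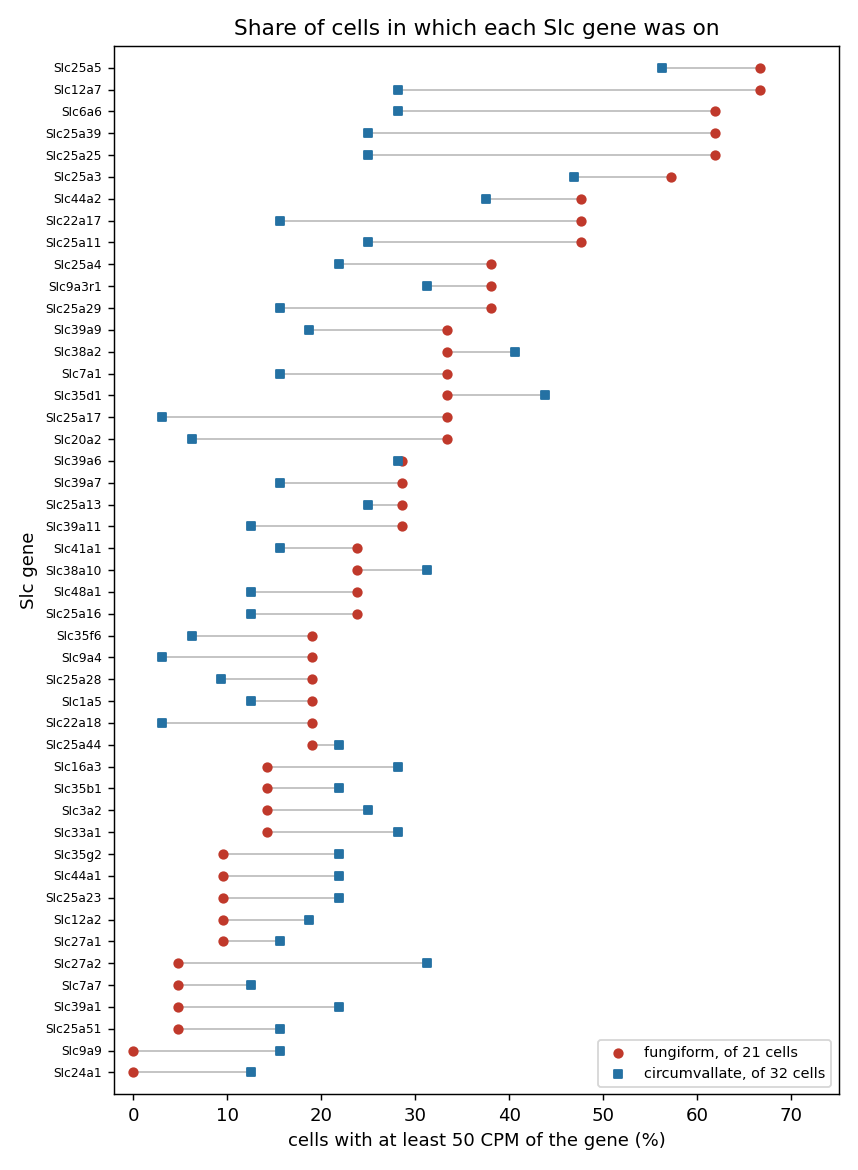
Percentage of cells with at least 50 CPM of 47 of the 48 Slc genes (rows) in FP (circles, of 21 cells) and CV (squares, of 32 cells). Slc12a7 and Slc25a5 were on in 14 of 21 FP cells, and Slc24a1 and Slc9a9 in none.

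Cells with more genes detected had more carriers on. A kept FP cell had a median of 15 of the 48 members on (3 to 23), and a kept CV cell a median of 6 (0 to 31). Spearman's rho between genes detected and members on was 0.89 over 21 FP cells and 0.90 over 32 CV cells, where both measures come from the same counts of each cell. With each cell thinned to 71770 counts and 6 shallower CV cells dropped, the medians of members with at least 3 counts were 16 in FP and 14 in CV. The 26 CV cells deep enough for this had a median of 14 members on before thinning, close to the FP median.

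**Figure D4:**
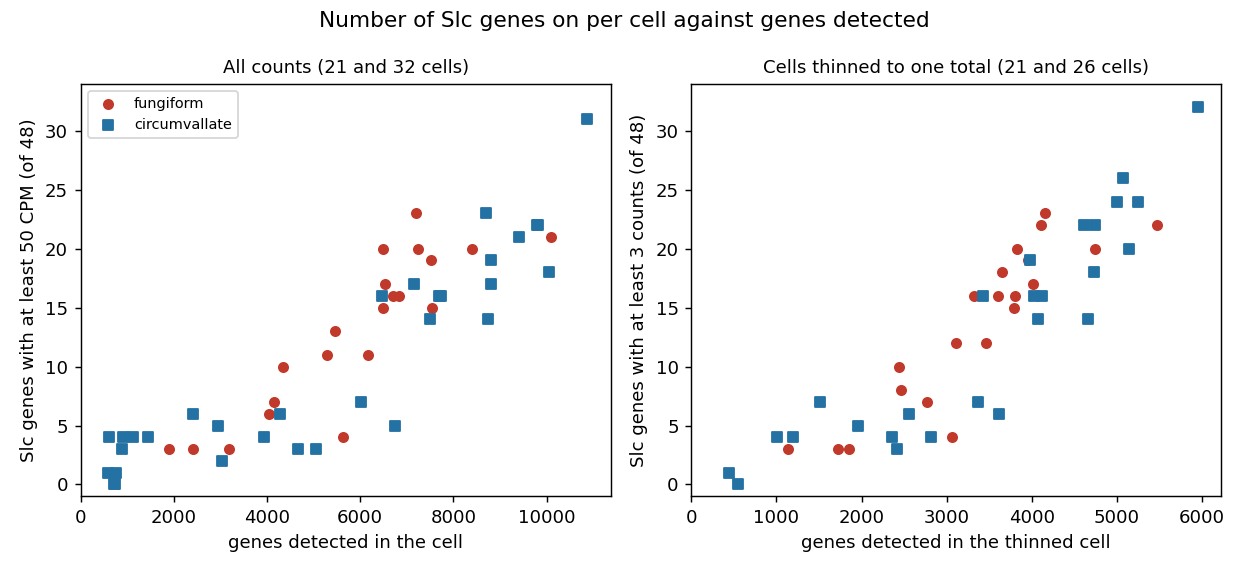
Number of the 48 Slc genes on per cell against the number of genes detected, for FP cells (circles) and CV cells (squares), with all counts (left, at least 50 CPM) and after thinning to one total (right, at least 3 counts). The libraries overlap in both panels, with medians of 15 and 6 genes on the left and of 16 and 14 on the right.

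Most pump genes that reached 50 CPM lay within 2-fold between the libraries. Of 18 sodium and calcium pump genes, 14 were listed and 9 reached 50 CPM. Of these 9, FP was at least 2-fold higher for 3 and CV for none (median log2 ratio 0.85), beside 17% and 17.1% of all genes. The β subunit Atp1b1 of the sodium pump had 1967 CPM in FP cells and 1114 CPM in CV cells. Atp1b2 and Atp1b3 encode other β subunits, and Atp1b3 had 131 and 41.7 CPM. Atp1b2 had 119 CPM in FP cells, on in 9 of 21 cells, and 4.60 CPM in CV cells, on in 1 of 32 cells. Fxyd6, a regulator of the sodium pump, had 2466 and 1272 CPM, and the calcium pump of the endoplasmic reticulum Atp2a3 had 2253 and 1242 CPM. Others lay the other way within 2-fold, the plasma membrane calcium pump Atp2b1 with 123 and 180 CPM and Atp2a2 with 91.4 and 99.3 CPM, and Fxyd3, below the minimum, had 11.2 and 42.5 CPM. Of 15 listed genes of the vacuolar proton pump, which acidifies vesicles, all reached 50 CPM, 2 were 2-fold or more higher in FP (Atp6v1a, 397 and 178 CPM, and Atp6ap2, 127 and 45.7 CPM), and the median was 0.56. Atp6v1e1 had 341.9 and 367 CPM. The organic anion carriers of the Slco family had 1 of 6 genes at 50 CPM, Slco3a1 with 37.2 and 58.9 CPM.

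Of the 24 members that were at least 2-fold apart, all kept their direction under each of the 14 other ways of processing, and 9 stayed at least 2-fold apart under each. For the 21 of the 24 that reached 50 CPM in 1 library only, the choice of members set that direction in the main values, so a kept direction is no sign of stability. The 9 were Slc20a2, Slc25a17 and Slc22a17 in FP and Slc16a3, Slc24a1, Slc27a2, Slc33a1, Slc38a2 and Slc9a9 in CV. Of these only Slc22a17 and Slc38a2 reached 50 CPM in both libraries, so for the others the choice of members also favours a wide ratio. The same count over the 5028 genes is not given, so 9 of 24 is a description of the members. Reading the Gnat3 limit on 2 other log bases kept as many cells and gave the same counts of members, so these count among the 14 without moving a value.

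**Figure D5:**
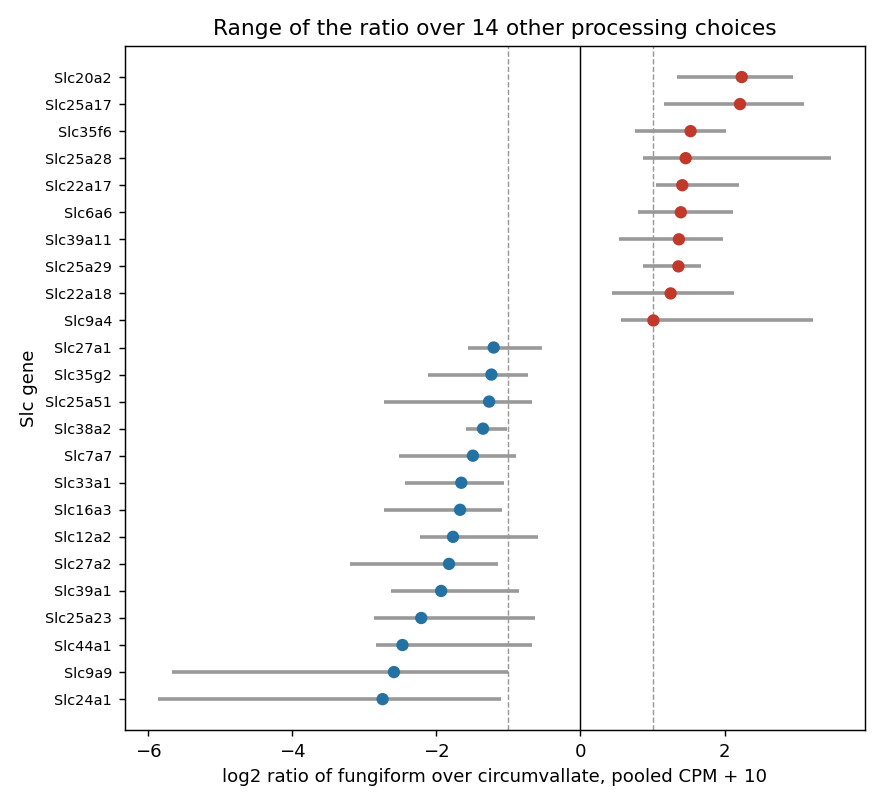
Log2 ratio of FP over CV on the pooled CPM + 10 scale (dots) for the 24 Slc genes at least 2-fold apart, with the range over 14 other ways of processing (bars). No bar crosses 0, and the bars of 9 genes stay outside the dashed lines at 2-fold.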

How the data were processed

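Single taste cells sorted by GFP were captured on the BD Rhapsody system and amplified by TAS-Seq, per the labels' protocols and the series design. The values deposited by the authors are raw counts, whole numbers for each gene in each barcode. Tools named in the submitters' processing notes are Bowtie2 2.3.4.1, cutadapt 2.10 and Seurat 2.3.4, and the build is mm10. The series design names reference RNA as the alignment target, DropletUtils for choosing barcodes, and an error correction based on count distributions. No source used here says if molecular barcodes were collapsed, so counts may hold PCR copies and intervals are then too narrow.

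Kept cells were summed per library and expressed as CPM (Python 3.11.15, pandas 2.3.3, scipy 1.17.1). A gene missing from a table was taken as 0. The authors' mitochondrial and ribosomal RNA limits, which can be read in several ways, were not applied. No doublet caller was run on these 53 cells. Sums carry exact Poisson intervals and ratios exact conditional binomial ones. A floor of 3 counts, or of 3 cells, stands for 0. With 1 library per group no test was made. The calculation of pooled ratios was run on simulated counts with known folds. All simulated cells of a library shared the same profile, unlike the real cells. The simulation therefore checks the calculation only and cannot say how far a ratio resting on few cells can be trusted. The members, lists and rules were chosen with earlier results of these data known. Named were up to 4 members per role with the highest pooled CPM, up to 12 per direction by the stricter description, the 12 broadest, up to 8 resting most on 1 cell, 3 genes on each side of the limit and up to 4 genes per partner list. Slc35b1, Slc25a16, Slc25a44 and others outside this rule were named so that the members are accounted for; all counts and medians cover the 48 members, of which 1 is not reported here by name, nor is 1 gene of the pump lists. Roles follow Slc family numbers. Positions and transcript lengths came from GENCODE M21 (48 of 48 matched), and promoters from RefSeq.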

Additional observations from a re-analysis of the deposited data

How the results depend on the processing

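The 14 alternatives changed the cell filter, the totals, scaling, pooling, thinning or pseudocount, or, chosen after seeing the data, leaving out 5 kept CV cells in a run of adjoining barcode numbers. Over these the members at least 2-fold higher in CV numbered 8 to 16 and those in FP 4 to 14. With no Gnat3 limit 6 members were higher in FP, against 10. With a pseudocount of 50 CPM, which shrinks the ratios of low genes by its construction, 4 were higher in FP and 8 in CV. The median log2 ratio ran from -0.18 to 0.23 and was negative under 2 of 14, so it has no settled sign. A minimum of 100 CPM left 22 members and one of 25 CPM gave 108. Without the highest cell of each gene 32 genes reached 50 CPM. No ratio past 2-fold changed sign, though for 21 of the 24 the choice of members had set that sign in the main values. No paired analysis was possible because each papilla has 1 library. The shallowest kept CV cell had 32726 counts, at which 2 counts of a gene already pass 50 CPM.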

Other observations

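The barcodes left out by the Gnat3 limit held some carriers at other levels than the kept cells. They were 8 in FP and 24 in CV, the CV ones with 47.7% mitochondrial counts and a median of 158028 counts. In the 8 FP barcodes, where Gnat3 was at 10.8 CPM, the zinc carriers Slc39a6 and Slc39a1 had 196 and 52.7 CPM, against 91.3 and 9.71 CPM in kept FP cells. Slc25a5 had 494 CPM there and was on in 5 of 8, and Slc25a3 (325 CPM), Slc44a2 (169 CPM) and the scaffold gene Slc9a3r1 (131 CPM) were close to their levels in kept cells. In contrast Slc12a7 had 1.15 CPM, Slc22a17 0.247 CPM and Slc7a1 6.74 CPM there, against 243, 182 and 138 CPM in kept FP cells. In the 24 CV barcodes Slc9a9 had 185 CPM, on in 2 barcodes, and Slc12a7 had 335 CPM, on in 3. Slc1a5 (149 CPM) and Slc39a11 (142 CPM) were each on in 2. These barcodes were set apart by their Gnat3 level, no replicate exists, and the differences were not tested.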
